A study of Mus musculus with 21 samples.

Results

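Astrocytes are the glial cells that take up transmitter from synapses, buffer ions and water around neurons and blood vessels, and share metabolites through gap junctions. In the hypothalamus they sit next to neurons that sense nutrients and hormones, together with the tanycytes that line the third ventricle. A set of genes is commonly used to recognise them in tissue, and the 10 genes described here are *Slc1a2*, *Slc1a3* and *Glul* (glutamate handling), *Gja1* and *Gjb6* (gap junctions), *Aqp4* (water channel), *Aldh1l1* and *Aldoc* (metabolic enzymes), *S100b* (calcium binding) and *Sox9* (transcription factor). They were chosen by name, and all 10 were found, with 1 Ensembl identifier each, among the 21654 genes of the count table.

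Gene expression was measured by RNA-seq of ventral hypothalamus (VH) punches from male C57BL/6J mice of the Jackson Laboratory (spelled C57/B6J and C57/BL6 in the labels) that were 12 to 14 weeks old when acquired. Mice ate regular chow (RC) or a high-fat diet (HFD) throughout (RC NoDS, 5 libraries, and HFD NoDS, 5 libraries) or were switched to the other diet for the last week (RC → HFD, 6 libraries, and HFD → RC, 5 libraries). Every library pooled mRNA from 2 mice that had been kept awake for 3 h before collection at zeitgeber time 6, so the spread given below is between pools and not between single animals. The reads counted on genes summed to between 16380781 and 16390598 per library after the authors had brought all libraries to 1 depth with the PORT pipeline, so these sums are not the sequencing depths. No genotype, transgene or cell sorting separated the groups, and the labels give no batch. Because the tissue was analysed in bulk, fewer cells of a type and less RNA per cell cannot be told apart.

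All 10 genes were abundant and passed the filter of 50 reads on average over the 21 libraries, with the smallest count in any library being 542 (*Sox9*) and the largest 27188 (*Glul*). Levels are given as CPM, the read count relative to the TMM-scaled size of the library. To set genes beside each other, CPM was divided by the length of the merged exons in kb. On this scale the 2 enzymes with the highest levels were *Glul*, which makes glutamine from glutamate, at 405 ± 48.4 CPM per kb (SD, n = 21), and *Aldoc*, the brain form of the glycolytic enzyme aldolase, at 366 ± 33.0 (SD, n = 21). *S100b* (117 ± 24.7) and the glutamate transporter *Slc1a3* (91.5 ± 6.15) followed, then the connexin *Gja1* (69.0 ± 6.29) and the transporter *Slc1a2* (68.2 ± 6.49; SD, n = 21 for each). *Gja1* was above *Slc1a2* in 10 of 21 libraries, so that pair could not be ordered. The connexin *Gjb6* (37.1 ± 4.83), the water channel *Aqp4* (17.4 ± 2.24), the folate enzyme *Aldh1l1* (14.1 ± 1.93) and *Sox9* (10.999 ± 1.65) were lowest (SD, n = 21 for each). The other neighbours in this order kept their order in 17 to 21 of 21 libraries. The length of a gene was the same in every library, so this agreement says nothing about the lengths used. By CPM alone the order was another one, with *Slc1a2* (897) above *Slc1a3* (781), *Gja1* (214) and *S100b* (173).

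The genes differed in how much they varied between libraries of a group. The within-group SD on the log2 scale was smallest for *Slc1a3* (0.09), *Aldoc* (0.11) and *Slc1a2* (0.12) and largest for *S100b* (0.23) and *Sox9* (0.22). Its median over the 10 genes was 0.18, beside 0.22 over all 12768 genes tested and 0.15 over the 5345 genes with at least as many reads as *Sox9*.

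*Slc1a2*, the main glutamate transporter of forebrain astrocytes, lies on chromosome 2 (NCBIM37, 102498816 to 102630941, plus strand). Its CPM was 801, 994, 977, 892 and 798 in the RC NoDS libraries, and ran from 865 over a median of 975 to 1037 in RC → HFD. It was 876, 819, 961, 949 and 936 in HFD → RC, and 765, 894, 903, 795 and 748 in HFD NoDS. Levels were lowest in HFD NoDS, where the highest libraries reached into the range of every other group. *Slc1a3*, the second astrocyte glutamate transporter (chromosome 15, 8584124 to 8660764, minus strand), was at 781, 816, 816, 764 and 726 CPM in RC NoDS, and from 735 over 791 to 875 in RC → HFD. It was 829, 734, 847, 853 and 828 in HFD → RC and 711, 667, 744, 762 and 783 in HFD NoDS. In HFD → RC all libraries but replicate 14 were above every HFD NoDS library, and that replicate lay within the HFD NoDS range. *Glul* (chromosome 1, 155747074 to 155756853, plus strand) averaged 1248 ± 165 CPM (SD, n = 5) in RC NoDS, 1383 ± 122 (SD, n = 6) in RC → HFD, 1418 ± 131 (SD, n = 5) in HFD → RC and 1335 ± 214 (SD, n = 5) in HFD NoDS. Its differences between groups were about the size of the spread within them.

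The gap junction genes had group means close to each other. *Gja1*, which encodes connexin 43 (chromosome 10, 56097106 to 56110225, plus strand), averaged 214 ± 17.1 CPM (SD, n = 5) in RC NoDS, 217 ± 16.2 (SD, n = 6) in RC → HFD, 211 ± 16.96 (SD, n = 5) in HFD → RC and 214 ± 31.2 (SD, n = 5) in HFD NoDS. *Gjb6*, which encodes connexin 30 (chromosome 14, 57742140 to 57752448, minus strand), averaged 83.9 ± 15.98 CPM (SD, n = 5), 86.7 ± 10.2 (SD, n = 6), 87.8 ± 7.29 (SD, n = 5) and 78.3 ± 9.69 (SD, n = 5) in the same order of groups. *Aqp4*, the water channel of astrocyte endfeet (chromosome 18, 15547903 to 15562193, minus strand), averaged 94.3 ± 8.42 CPM (SD, n = 5) in RC NoDS, 85.5 ± 7.76 (SD, n = 6) in RC → HFD, 94.6 ± 12.1 (SD, n = 5) in HFD → RC and 96.5 ± 17.6 (SD, n = 5) in HFD NoDS. The groups overlapped for all 3 genes.

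*Aldoc* (chromosome 11, 78136470 to 78141283, plus strand) was at 1064, 1014, 1216, 1041 and 1135 CPM in RC NoDS, and from 1159 over 1179 to 1272 in RC → HFD. It was 1288, 1277, 1411, 1149 and 1234 in HFD → RC and 1247, 1440, 1111, 1188 and 1093 in HFD NoDS. All RC NoDS libraries but replicate 3 were below every RC → HFD and HFD → RC library. *Aldh1l1* (chromosome 6, 90436421 to 90550197, plus strand) averaged 60.7 ± 8.94 CPM (SD, n = 5) in RC NoDS, 62.9 ± 2.67 (SD, n = 6) in RC → HFD, 70.2 ± 11.2 (SD, n = 5) in HFD → RC and 61.7 ± 9.69 (SD, n = 5) in HFD NoDS. *Sox9*, a factor of glial development that mature astrocytes keep (chromosome 11, 112643538 to 112649074, plus strand), averaged 45.3 ± 6.56 CPM (SD, n = 5), 42.9 ± 6.38 (SD, n = 6), 45.1 ± 6.02 (SD, n = 5) and 49.1 ± 8.78 (SD, n = 5) in RC NoDS, RC → HFD, HFD → RC and HFD NoDS. For both genes every pair of groups overlapped.

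*S100b* encodes a calcium-binding protein of astrocytes that oligodendrocytes also express (chromosome 10, 75716598 to 75723904, plus strand). Its CPM was 138, 141, 167, 126 and 148 in RC NoDS, and from 140 over 157 to 185 in RC → HFD. It was 216, 278, 219, 144 and 196 in HFD → RC and 164, 210, 159, 206 and 154 in HFD NoDS. In HFD → RC, 4 of 5 libraries were above every RC NoDS library, and replicate 16 lay among them. No pair of groups was free of overlap for any of the 10 genes, beside 0.47% to 1.35% of all genes tested, depending on the pair.

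**Figure D1:**
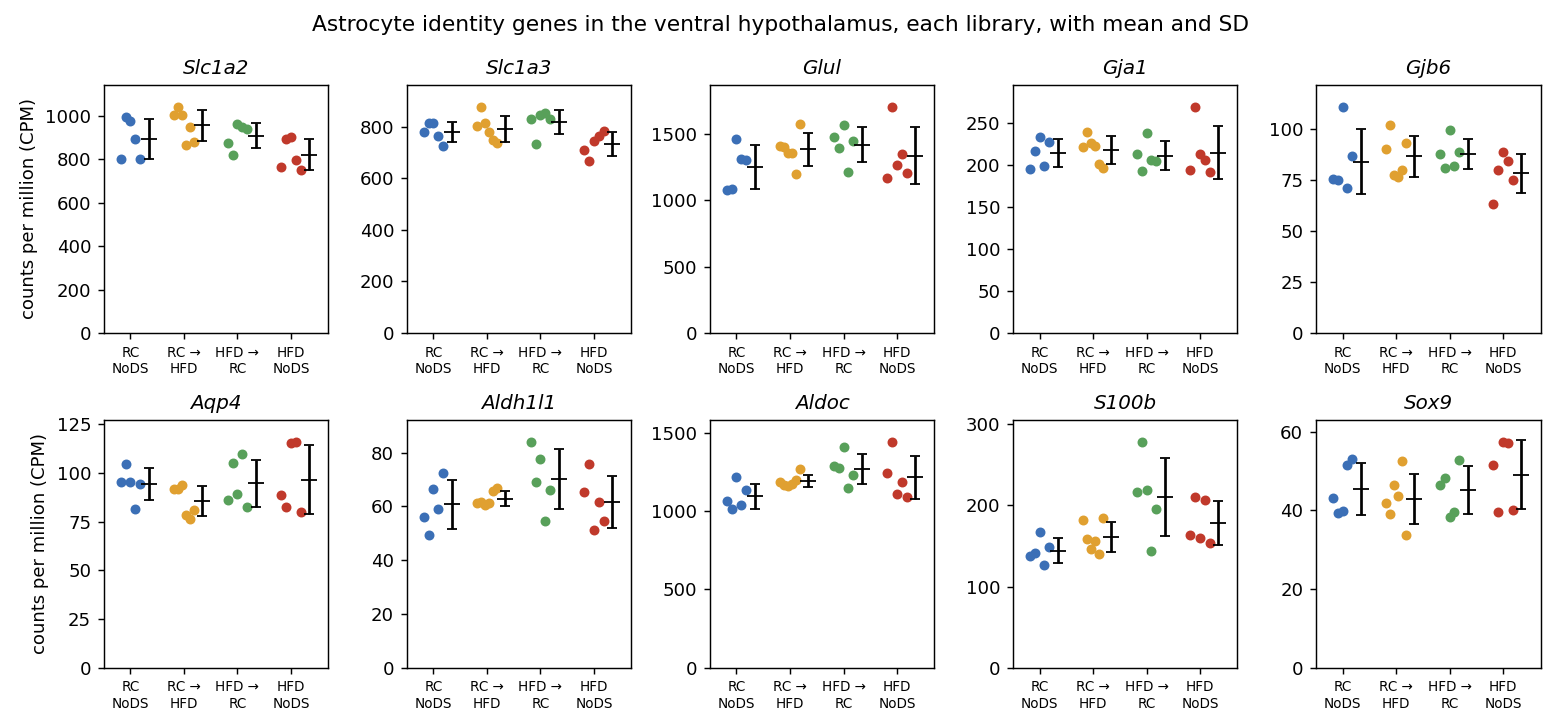
CPM of the 10 genes (vertical axes, from 0) in each of the 21 libraries by diet group, each point 1 pool of 2 mice, with bars for the group mean and SD. Groups overlapped for every gene, and the clearest spread was that of *S100b*, from 126 CPM in RC NoDS to 278 in HFD → RC.

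Differences between groups were tested with edgeR over all 12768 genes, with Benjamini-Hochberg adjustment and calls at an adjusted p under 0.15. The first question was what a stable high-fat diet did to these genes. In HFD NoDS against RC NoDS none of the 10 was called by edgeR, where 0.0783% of all genes were, and 2 of 10 had an unadjusted p under 0.05, where 7.41% of all genes had. DESeq2, limma-voom and limma-trend also called 0, each with 2 at that unadjusted level. The log2 fold changes were -0.12 for *Slc1a2*, -0.09 for *Slc1a3*, 0.10 for *Glul*, 0.00 for *Gja1*, -0.10 for *Gjb6*, 0.03 for *Aqp4*, 0.02 for *Aldh1l1* and 0.12 for *Sox9*. Without HFD NoDS replicate 20 the signs of *Glul* (-0.0046), *Gja1* (-0.09) and *Aldh1l1* (-0.06) turned. *Gja1* also turned without RC NoDS replicate 1 (-0.03) or 5 (-0.02), and *Aldh1l1* without RC NoDS replicate 1 (-0.0031) or 2 (-0.04). The sign of *Gjb6* turned without RC NoDS replicate 3 (0.02), and that of *Aqp4* without RC NoDS replicate 5 (-0.02) or HFD NoDS replicate 21 or 23 (-0.04 for each). With the share of genes at 0 as a covariate and in a fit to 13 libraries described below, *Glul* went to 0.02 and 0.03, *Gjb6* to -0.03 and -0.02 and *Aqp4* to 0.15 and 0.14 in this order. *Slc1a3* went there to -0.0064 and -0.03, and *Aldh1l1* (-0.02 and -0.12) and *Gja1* (-0.00034 and -0.07) turned. *Gja1* also lay below 0 with limma-voom, limma-trend, the filter at 5 reads, no filter and library size only, down to -0.02. *Aqp4* and *Aldh1l1* came down to 0.0012 and 0.0041 with limma-trend, and to 0.02 and 0.0045 with library size only. Over all alternatives *Glul* ran from -0.0046 to 0.16, *Gja1* from -0.09 to 0.04, *Gjb6* from -0.15 to 0.02, *Aqp4* from -0.04 to 0.15 and *Aldh1l1* from -0.12 to 0.10. Without losing their sign, *Slc1a2* went to -0.08 without RC NoDS replicate 2, *Slc1a3* to -0.06 without HFD NoDS replicate 20, and *Sox9* to values from 0.06 (without HFD NoDS replicate 23) to 0.18 (without HFD NoDS replicate 20). The pair at the unadjusted level was *S100b*, at 0.31 (SE 0.12, 95% interval 0.06 to 0.56), and *Aldoc*, at 0.15 (SE 0.07, 95% interval 0.02 to 0.29), and both had an edgeR Benjamini-Hochberg adjusted p of 0.657. *Aldoc* went to 0.08 without HFD NoDS replicate 20, to 0.10 with that covariate and to 0.05 in the 13 libraries. The median of the 10 genes was 0.03, beside 0.01 over all genes, and turned without RC NoDS replicate 5 (-0.00058) or HFD NoDS replicate 20 (-0.03). Its other values under the alternatives ran from 0.0018 (13 libraries) to 0.08 (without HFD NoDS replicate 24). The 95% confidence intervals of the 10 differences lay between -0.33 and 0.56, and each reached 0.12 to 0.27 to either side of its estimate.

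The second question was whether the diet eaten at collection or the one eaten before it mattered. For the current diet, RC → HFD and HFD NoDS against RC NoDS and HFD → RC, edgeR called none of the 10 (0.047% of all genes) and none had an unadjusted p under 0.05 (5.22% of all genes); DESeq2, limma-voom and limma-trend gave 0 at both levels as well. The 10 log2 fold changes lay between -0.07 and 0.03, with a median of -0.03 beside 0.00 over all genes, and their 95% intervals between -0.23 and 0.21. That median moved to -0.0037 without RC NoDS replicate 3, and to -0.01 or -0.02 without HFD → RC replicate 14 or HFD NoDS replicate 19 or 24. For the earlier diet, HFD → RC and HFD NoDS against RC NoDS and RC → HFD, edgeR again called none (0.0705% of all genes), and *S100b* and *Aldoc* had an unadjusted p under 0.05 (7.27% of all genes). *S100b* was higher by 0.35 on the log2 scale (SE 0.08, 95% interval 0.17 to 0.52), with an edgeR Benjamini-Hochberg adjusted p of 0.192 that missed the threshold. *Aldoc* was higher by 0.12 (SE 0.05, edgeR adjusted p = 0.59). *S100b* was called with no filter, and when 1 of RC NoDS replicate 3, RC → HFD replicate 12, HFD → RC replicate 16 and HFD NoDS replicates 21 and 24 was left out, at log2 fold changes from 0.37 to 0.40 and edgeR adjusted p-values of 0.145, 0.15, 0.0104, 0.146 and 0.105 in this order. DESeq2 called *S100b* for the earlier diet and limma-voom and limma-trend called none, with 2, 2 and 3 genes at the unadjusted level. The median of the 10 was 0.08, beside 0.00 over all genes, and was 0.03 without HFD NoDS replicate 20 and 0.05 with the share of genes at 0 as a covariate.

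Each switched group was then set beside the mice kept on chow. In HFD → RC against RC NoDS edgeR called 1 of 10, beside 0.282% of all genes, and 2 of 10 had an unadjusted p under 0.05, beside 8.1%. The called gene was *S100b*, higher by 0.54 on the log2 scale (SE 0.12, 95% interval 0.29 to 0.80, edgeR Benjamini-Hochberg adjusted p = 0.115). *Aldoc* was higher by 0.22 (SE 0.07, edgeR adjusted p = 0.247), which missed the threshold. *Aldoc* was called without HFD → RC replicate 16 (0.25) or HFD NoDS replicate 20 (0.22), with an edgeR adjusted p of 0.105 in both. DESeq2 also called 1 of 10, and limma-voom and limma-trend called 0, with 2, 3 and 2 at the unadjusted level. The other 8 lay between -0.02 and 0.21, and the median of the 10 was 0.07 beside 0.00 over all genes. This median was 0.04 with library size only and 0.13 without RC NoDS replicate 3, with the covariate or in the 13 libraries. The call of *S100b* was lost with limma-voom (adjusted p = 0.168), limma-trend (0.197), scaling by library size only (0.153) and the share of genes at 0 as a covariate (0.406). It was also lost when 1 of RC NoDS replicates 1, 2 and 5 and HFD → RC replicates 13, 14 and 15 was left out. There the edgeR adjusted p ran from 0.23 to 0.442 and the log2 fold change from 0.42 to 0.54. In RC → HFD against RC NoDS edgeR called none of the 10 (0.0392% of all genes), and none had an unadjusted p under 0.05 (6.51% of all genes); DESeq2, limma-voom and limma-trend called 0, with 0, 1 and 0 at the unadjusted level. There the log2 fold changes lay between -0.14 (*Aqp4*) and 0.16 (*S100b*), with 95% intervals between -0.35 and 0.40.

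In HFD → RC against RC → HFD edgeR called none of the 10 (0.00783% of all genes), and *S100b* alone had an unadjusted p under 0.05 (5.35% of all genes), with a log2 fold change of 0.38 (SE 0.12, edgeR adjusted p = 0.711). Without HFD → RC replicate 16 it was called, at 0.49 (edgeR adjusted p = 0.0683). In HFD → RC against HFD NoDS none was called (0.0705% of all genes) and *Slc1a3* alone reached the unadjusted level (7.93% of all genes), at 0.16 (SE 0.06, edgeR adjusted p = 0.53). In HFD NoDS against RC → HFD none was called (0.0157% of all genes) and *Slc1a2* alone reached it (7.49% of all genes), at -0.22 (SE 0.07, edgeR adjusted p = 0.49). DESeq2, limma-voom and limma-trend called none of the 10 in these 3 comparisons, with 1 or 2 at the unadjusted level in each. The remaining genes of the 3 comparisons lay between -0.15 and 0.24. In the 13 libraries, with 2 in HFD → RC, edgeR called 2 of the 10 in HFD → RC against HFD NoDS, beside 3.48% of all genes. These were *Aldh1l1* at 0.53 (edgeR adjusted p = 0.0615) and *Aldoc* at 0.26 (edgeR adjusted p = 0.113). *S100b* stood there at 0.33 and *Sox9* at -0.27, and neither was called.

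The interaction of earlier and current diet, which is the mean of both switched groups minus that of both unswitched groups, had 4 of 10 genes at an unadjusted p under 0.05, beside 8.84% of all genes. These were *S100b* at 0.20, *Slc1a2* at 0.12, *Aldoc* at 0.09 (0.18 in the 13 libraries) and *Slc1a3* at 0.09 on the log2 scale, each higher in the switched groups, and none of the 10 was called by edgeR (0.0313% of all genes, smallest Benjamini-Hochberg adjusted p = 0.448 for *Slc1a2*). DESeq2, limma-voom and limma-trend called none, with 3, 4 and 1 at the unadjusted level. The 10 had a median of 0.10, beside 0.00 over all genes, and of 0.16 in the 13 libraries. In that fit, with 2 libraries in HFD → RC, edgeR called 4 of the 10, beside 4.92% of all genes. These were *Aldh1l1* (0.27), *S100b* (0.25), *Glul* (0.21) and *Aldoc*, at edgeR adjusted p-values from 0.075 to 0.128. Over all 4 groups at once, edgeR called none of the 10 (0.149% of all genes), and *S100b*, *Aldoc* and *Slc1a2* had an unadjusted p under 0.05 (7.97% of all genes). DESeq2 called *S100b* there, limma-voom and limma-trend called none, and all 3 tools had 3 genes at the unadjusted level. Without HFD → RC replicate 16 edgeR called *S100b* there too. These comparisons share libraries, so their values are not independent of each other.

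**Figure D2:**
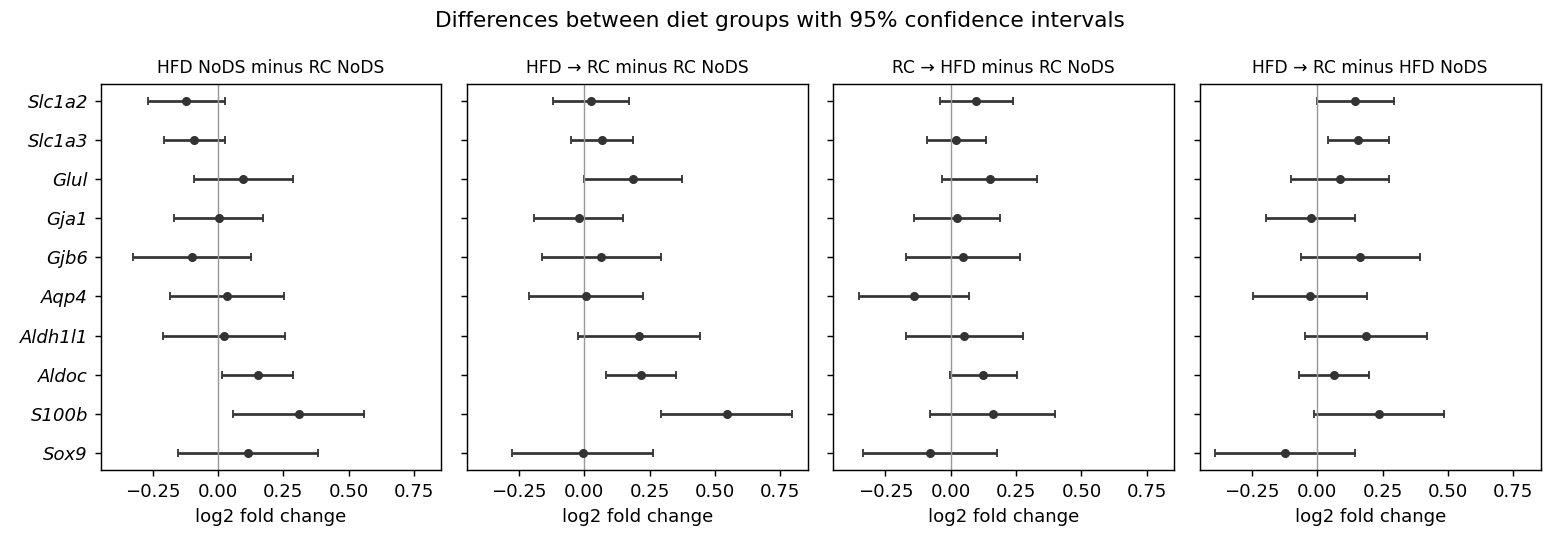
Log2 fold changes (horizontal axis) of the 10 genes in 4 comparisons of diet groups from edgeR, with 95% confidence intervals as bars and a line at 0. *S100b* in HFD → RC minus RC NoDS, at 0.54 with an interval from 0.29 to 0.80, lay farthest from 0.

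Marker genes of oligodendrocytes, the cells that make myelin, moved with *S100b*. All 10 of the oligodendrocyte list were detected in every library, with *Mbp*, a main protein of myelin, as the most abundant (46.9% of the list's summed CPM). In HFD → RC against RC NoDS all 10 were higher and 5 of 10 were called higher, beside 0.282% of all genes, with a median log2 fold change of 0.82, beside 0.00 over all genes. Among them were *Mobp* (1.19), *Ermn* (1.15), *Mbp* (1.04) and *Mal* (0.74), at edgeR Benjamini-Hochberg adjusted p-values from 0.0614 to 0.115. All 5 calls were lost with limma-voom, with limma-trend and with the share of genes at 0 as a covariate. They were also lost when 1 of RC NoDS replicates 1, 2 and 5 and HFD → RC replicates 13, 14 and 15 was left out (edgeR adjusted p from 0.164 to 0.442). With robust dispersion *Ermn* alone was still called, with library size only *Mobp* and *Ermn*, and with only the 2 groups compared all but *Mal*. The summed CPM of the list was 2391, 2778, 3491, 2469 and 3589 in RC NoDS and from 2886 over 3272 to 4233 in RC → HFD. It was 6677, 8927, 5238, 2965 and 4155 in HFD → RC and 3779, 6425, 3390, 6103 and 2909 in HFD NoDS. The libraries with the highest *S100b*, HFD → RC replicates 13, 14 and 15 and HFD NoDS replicates 20 and 23, were also those with the highest sum, and HFD → RC replicate 16 was lowest in its group for both. Between HFD NoDS and RC NoDS all 10 oligodendrocyte genes were higher, none was called, and the median was 0.54, with *Mobp* (0.72), *Mbp* (0.72) and *Mog* (0.58 on the log2 scale) among the genes of smallest p.

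Within groups the relation was close. With the group mean removed, *S100b* and the log2 sum of the oligodendrocyte genes had r = 0.939 and Spearman rho = 0.916 over 21 libraries (permutation p = 1e-05 for both, the smallest that 100000 permutations can give). The Benjamini-Hochberg adjusted p was 0.0007 for both, over 70 relations of 10 genes with 7 cell type lists that were computed after the data were seen. Without the libraries farthest from the median of the sum, HFD → RC replicates 14 and 16, r was 0.897. Ranked by r with *S100b* among the other genes tested, as a description added after the data were seen, *Mal* came first (0.938), *Mbp* was at rank 3 (0.930) and *Mobp* at rank 4 (0.929), and all 10 oligodendrocyte genes were within the first 50. Of the other astrocyte identity genes, *Aldoc* came nearest, at rank 210 (0.642), and *Slc1a3* was at rank 11196 (-0.384). The level of *S100b* followed the myelin genes more closely than it followed the genes it was chosen with. The part of oligodendrocyte RNA in the *S100b* difference was not tested.

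**Figure D3:**
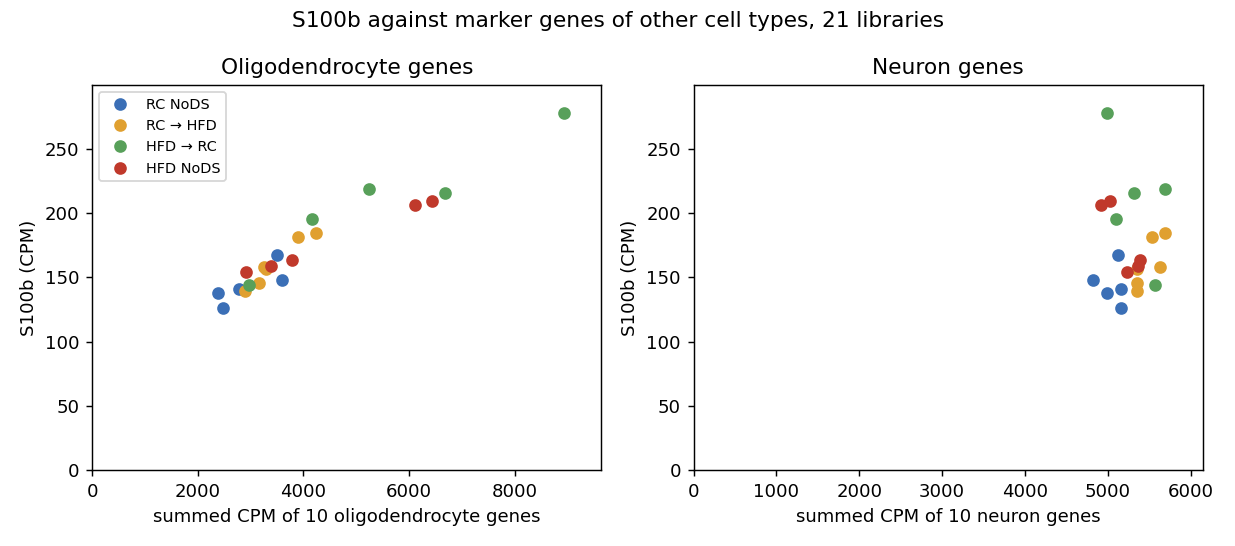
*S100b* in CPM (vertical axes) against the summed CPM of 10 oligodendrocyte genes (left) and 10 neuron genes (right) in the 21 libraries, coloured by diet group. *S100b* went up with the oligodendrocyte sum, from 126 CPM to 278 CPM, while the neuron sums covered a narrow range.

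*S100b* also overlaps *Dip2a*, which is annotated on the opposite strand. The libraries were made with a stranded kit, but whether reads were counted by strand is not given, so reads from the overlap of the 2 genes cannot be told apart. *Dip2a* averaged 106 ± 7.98 CPM (SD, n = 5) in RC NoDS, 112 ± 5.91 (SD, n = 6) in RC → HFD, 123 ± 12.3 (SD, n = 5) in HFD → RC and 120.0 ± 8.69 (SD, n = 5) in HFD NoDS. Between HFD → RC and RC NoDS its log2 fold change was 0.22 (edgeR adjusted p = 0.363), and within groups its r with *S100b* was 0.614, at rank 263. The genes annotated over *Glul* that the table lists, *5830403L16Rik* and *A930039A15Rik*, averaged 5.52 and 10.1 reads, beside 21978 for *Glul*. Those annotated over *Slc1a2* (*Gm13872*) and *Aldh1l1* (*Gm15756*), and *Gm11074* over *Glul*, are not in the table.

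The 10 genes did not vary as 1 block between libraries of a group. Over their 45 pairs, r between residuals from the group means had a median of 0.209, beside -0.0011 over all pairs of tested genes, and ran from -0.467 to 0.856. Of the 45, 29 were positive and 10 had a Benjamini-Hochberg adjusted permutation p under 0.05 for r, and 6 for rho. The closest pair was *Aldh1l1* and *Aldoc* (r = 0.856, rho = 0.913, permutation p = 1e-05 for both, adjusted p = 0.00045 over 45 pairs), at r = 0.808 without HFD NoDS replicate 20 and HFD → RC replicate 16. *Glul* went with *Aldoc* (r = 0.776, rho = 0.651, permutation p = 4e-05 and 0.00179, adjusted p = 0.0009 and 0.0161), at r = 0.636 without the same libraries. It also went with *Aldh1l1* (r = 0.689, rho = 0.686, permutation p = 0.00055 and 0.00087, adjusted p = 0.00825 and 0.0119), at r = 0.543 without them. *S100b* joined these 3 genes. Its r was 0.642 with *Aldoc* (rho = 0.731, permutation p = 0.00173 and 0.00028, adjusted p = 0.0158 and 0.0063) and 0.580 without HFD NoDS replicate 20 and RC NoDS replicate 3. With *Glul* it was 0.641 (rho = 0.673, permutation p = 0.00176 and 0.00106, adjusted p = 0.0158 and 0.0119) and 0.534 without HFD NoDS replicate 20 and HFD → RC replicate 16. With *Aldh1l1* it was 0.575 (rho = 0.612, permutation p = 0.00672 and 0.004, adjusted p = 0.0306 and 0.03) and 0.359 without the last 2 libraries.

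Relations of the connexins and transporters crossed the roles of the genes. The highest r of *Gja1* was with *Glul* (r = 0.617, rho = 0.451, permutation p = 0.00266 and 0.0426, adjusted p = 0.0199 and 0.16), at 0.461 without HFD NoDS replicate 20 and HFD → RC replicate 16. *Gjb6* also went with *Glul* (r = 0.580, rho = 0.499, permutation p = 0.00577 and 0.0225, adjusted p = 0.0306 and 0.114), at 0.657 without the same libraries. *Slc1a2* went with *Gja1* (r = 0.599, rho = 0.565, permutation p = 0.00386 and 0.00895, adjusted p = 0.0248 and 0.0575), at r = 0.719 without RC NoDS replicates 2 and 6. *Slc1a2* and *Slc1a3*, the pair with the same function, had r = 0.450 and rho = 0.499 (permutation p = 0.042 and 0.0227, adjusted p = 0.126 and 0.114), and r = 0.358 without the same libraries. The connexins *Gja1* and *Gjb6* had r = 0.492 and rho = 0.400 (permutation p = 0.0225 and 0.0727, adjusted p = 0.0919 and 0.234), and r = 0.545 without HFD NoDS replicate 20 and HFD → RC replicate 15. *Gja1* and *Aldoc* had r = 0.575 and rho = 0.344 (permutation p = 0.00679 and 0.125, adjusted p = 0.0306 and 0.319), and r = 0.184 without the same libraries, so this relation rested on them. *Slc1a3* had negative r with the enzymes, down to -0.467 with *Aldh1l1* (rho = -0.430, permutation p = 0.032 and 0.0529, adjusted p = 0.12 and 0.183), and -0.422 without HFD NoDS replicate 20 and HFD → RC replicate 14. The highest r of *Sox9* with another of the 10 genes was 0.138, with *Aqp4*, and it turned to -0.0998 without HFD NoDS replicates 21 and 23.

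**Figure D4:**
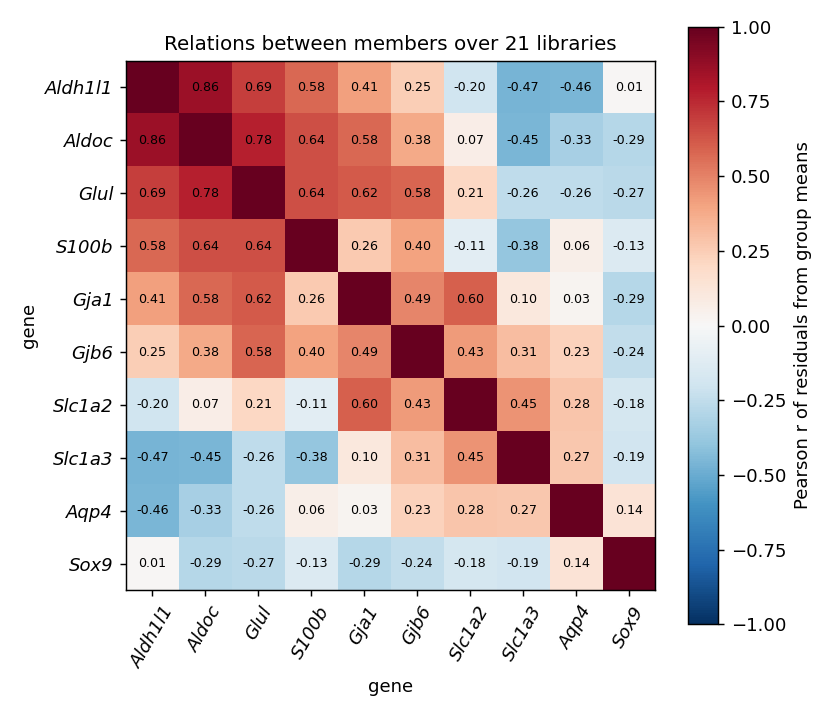
Pearson r of log2 CPM between each pair of the 10 genes (both axes) over 21 libraries after removal of the group means, coloured from -1 to 1. *Aldh1l1*, *Aldoc*, *Glul* and *S100b* had values up to 0.856 with each other, and *Sox9* had its highest value at 0.138.

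The same genes differed in which other cell types they went with. *Aldoc*, *Glul* and *Aldh1l1* had r = 0.655, 0.642 and 0.675 with the oligodendrocyte sum (permutation p = 0.00125, 0.00166 and 0.00093, adjusted p = 0.0106, 0.0106 and 0.0093 over the 70). Their rho was 0.736, 0.644 and 0.722 (permutation p = 0.00025, 0.00212 and 0.00042, adjusted p = 0.007, 0.0173 and 0.007), and r without HFD → RC replicates 14 and 16 was 0.687, 0.701 and 0.694. All 3 also went with the 6 genes of oligodendrocyte precursors, of which *Olig1* was the most abundant and none was at 0 in any library. There r was 0.722, 0.720 and 0.696 (permutation p = 0.00018, 0.0002 and 0.00046, adjusted p = 0.0035, 0.0035 and 0.00644), and 0.787, 0.813 and 0.7098 without HFD → RC replicate 14 and RC NoDS replicate 6. Their rho was 0.700, 0.706 and 0.705 (permutation p = 0.0006, 0.00048 and 0.00052, adjusted p = 0.007 for each). *S100b* went with the precursor genes as well (r = 0.730, rho = 0.638, permutation p = 0.00014 and 0.00223, adjusted p = 0.0035 and 0.0173), at r = 0.711 without the same libraries. Its r with the microglia sum was 0.650 (rho = 0.540, permutation p = 0.00146 and 0.0123, adjusted p = 0.0106 and 0.0859), and 0.445 without HFD NoDS replicate 23 and HFD → RC replicate 14. *Slc1a3* had negative relations. Its r was -0.577 with microglia (rho = -0.451, permutation p = 0.00632 and 0.0419, adjusted p = 0.034 and 0.209) and -0.604 without the last 2 libraries. With the precursor genes it was -0.570 (rho = -0.470, permutation p = 0.00728 and 0.0326, adjusted p = 0.0364 and 0.19) and -0.404 without HFD → RC replicate 14 and RC NoDS replicate 6. Over the 21 libraries *Slc1a2*, *Gja1*, *Gjb6* and *Aqp4* had no relation with any of the 7 lists at an adjusted p under 0.05. For *Gja1*, r with the oligodendrocyte sum was 0.316, and 0.526 without HFD → RC replicates 14 and 16.

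*Sox9* went with the 10 tanycyte genes (r = 0.681, rho = 0.636, permutation p = 0.0006 and 0.00218, adjusted p = 0.007 and 0.0173), at r = 0.532 without HFD NoDS replicate 20 and RC → HFD replicate 12. *Aldoc* had a negative r with them (r = -0.649, rho = -0.462, permutation p = 0.00161 and 0.0364, adjusted p = 0.0106 and 0.196), at -0.494 without the same libraries. So did *Glul* (r = -0.609, rho = -0.487, permutation p = 0.00322 and 0.0269, adjusted p = 0.0188 and 0.171), at -0.384 without them. Without those libraries r was also negative for *Gja1* (-0.613), *Slc1a2* (-0.561), *Gjb6* (-0.543) and *Slc1a3* (-0.539). With them it was -0.457, -0.363, -0.493 and -0.00049 in this order. *Aldh1l1* and *S100b* were at -0.260 and -0.045 without them, and *Aqp4* was at 0.037. No p was computed for r without those libraries. Tanycytes express *Sox9* too, and their part in its level was not tested. The tanycyte sum averaged 562 ± 50.8 CPM (SD, n = 5) in RC NoDS, 459 ± 83.9 (SD, n = 6) in RC → HFD, 486 ± 69.3 (SD, n = 5) in HFD → RC and 556 ± 79.8 (SD, n = 5) in HFD NoDS. Its most abundant gene was *Col25a1*, none of its genes was at 0 in any library, and none was called in any comparison. The same held for the neuron, microglia, ependymal and endothelial lists, whose most abundant genes were *Map2*, *Csf1r*, *Foxj1* and *Flt1*.

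Among genes with a mean of 5 to 50 reads, the percentage without any read differed between libraries. It averaged 3.22% ± 2.42 (SD, n = 5) in RC NoDS, 11.9% ± 8.82 (SD, n = 6) in RC → HFD, 16.5% ± 10.3 (SD, n = 5) in HFD → RC and 16.3% ± 9.93 (SD, n = 5) in HFD NoDS. Within groups *Slc1a3* was lower where this share was high (r = -0.653, rho = -0.655, permutation p = 0.00125 and 0.00156, adjusted p = 0.0125 and 0.0156 over 10 genes), at r = -0.712 without HFD NoDS replicate 20 and HFD → RC replicate 17. The other 9 had an adjusted p of 0.375 or more for r. With this share as a covariate, *S100b* in HFD → RC against RC NoDS was at 0.50 on the log2 scale and was not called (edgeR adjusted p = 0.406). With only the 13 libraries that had at most 15% of such genes at 0, a choice made after seeing the data that left out RC → HFD replicates 10, 11 and 12, HFD → RC replicates 14, 16 and 17 and HFD NoDS replicates 19 and 20, edgeR called 4 of 10 there: *S100b* at 0.59, *Aldh1l1* at 0.41, *Aldoc* at 0.31 and *Glul* at 0.29 (adjusted p from 0.0104 to 0.127). In this fit 2 libraries, replicates 13 and 15, stood for HFD → RC, and replicate 16, which was lowest of its group for all 4 genes, was left out at 15.1%. The same fit called 508 of 12768 genes in all (3.98%), where the fit to 21 libraries called 36. The part of this share in the differences was not tested.

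Genes close to the members in function were tested in the same fit. Of the 54 other astrocyte genes, 53 were tested. In HFD NoDS against RC NoDS 29 were higher and 24 lower, none was called, and their median log2 fold change was 0.01 (-0.04 to 0.04 under the alternatives), beside 0.01 over all genes. The most abundant by CPM was *Sparc*, and the smallest p-values were those of *Mfge8* (0.26), *Cldn10* (-0.26), *Sparcl1* (0.10) and *Gpr37l1* (0.16 on the log2 scale). Of the 53, 43 were higher and 10 lower in HFD → RC than in RC NoDS, with a median of 0.13 beside 0.00 over all genes, and 2 were called higher, beside 0.282% of all genes. *Sparcl1*, which encodes a secreted matrix protein that promotes synapse formation, was at 2523 ± 169 CPM (SD, n = 5) against 2117 ± 114 (SD, n = 5), a log2 fold change of 0.25 (edgeR Benjamini-Hochberg adjusted p = 0.0614). *Slc6a9*, the glycine transporter GlyT1, was at 63.0 ± 9.42 against 46.4 ± 6.85 (SD, n = 5 for each), a log2 fold change of 0.44 (edgeR adjusted p = 0.14). Both calls were lost with the covariate and when 1 of RC NoDS replicates 1, 2 and 5 and HFD → RC replicates 13, 14 and 15 was left out (edgeR adjusted p from 0.154 to 0.335 for *Sparcl1*). That of *Slc6a9* was also lost with limma-voom, limma-trend, the filter at 5 reads, no filter, library size only and only the 2 groups compared. The same held without 1 of RC → HFD replicates 7, 8, 9 and 10 and HFD NoDS replicates 19 and 21, and over all libraries that ended this call its edgeR adjusted p ran from 0.151 to 0.453. *Slc6a9* overlapped between the groups and *Sparcl1* did not, beside 1.35% of all genes tested.

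Of 16 partners of the members in the glutamate-glutamine cycle and in the anchoring of the water channel, 14 were tested and none was called in any comparison. In HFD NoDS against RC NoDS 6 were higher and 8 lower, with a median of -0.04 (-0.07 to -0.02 under the alternatives), and in HFD → RC against RC NoDS 7 were higher and 7 lower, with a median of 0.00 (-0.04 to 0.07). The most abundant was the glutamine transporter *Slc38a1*, and *Got1* (0.15), *Dmd* (-0.19) and *Lama2* (0.39 on the log2 scale) were among those of smallest p in the former. Of 26 paralogs 21 were tested and none was called. *Aldoa*, the general form of aldolase, took 70.7% of their CPM. Among the paralogs of smallest p in HFD NoDS against RC NoDS were *S100a1* (0.32), *S100a6* (-0.28) and *Gjb1* (0.70 on the log2 scale). *Gjb1* encodes a connexin of oligodendrocytes, and in HFD → RC against RC NoDS it stood at 1.101 (edgeR adjusted p = 0.369), where *Gja1* and *Gjb6* stood at -0.02 and 0.07.

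Genes of reactive glia passed the test in comparisons where no identity gene did. Of 12 tested, 11 were higher in HFD NoDS than in RC NoDS and 2 were called, beside 0.0783% of all genes. The called genes, *Serpina3n* and *C4b*, were among those the study had reported as differentially expressed from these same libraries. The list was chosen with such results known, so its share of calls is not independent support for an excess. *Serpina3n*, a protease inhibitor, was at 366 ± 59.7 CPM (SD, n = 5) against 192 ± 30.7 (SD, n = 5), a log2 fold change of 0.93 (edgeR Benjamini-Hochberg adjusted p = 0.00135), and *C4b*, a complement component, at 106 ± 34.02 against 52.8 ± 12.2 (SD, n = 5 for each), a log2 fold change of 1.01 (edgeR adjusted p = 0.00316). *Gfap*, the intermediate filament of astrocytes, was the most abundant of the list, at 220 ± 35.5 CPM (SD, n = 5) in RC NoDS, 192 ± 31.5 (SD, n = 6) in RC → HFD, 300 ± 138 (SD, n = 5) in HFD → RC and 389 ± 137 (SD, n = 5) in HFD NoDS. For *Gfap* the log2 fold change in HFD NoDS against RC NoDS was 0.82 (edgeR adjusted p = 0.601), and for the earlier diet it was 0.73 and was called (edgeR adjusted p = 0.0891). That call was lost with limma-voom, limma-trend, robust dispersion, the covariate and the 13 libraries. It was also lost without 1 of RC NoDS replicates 1, 2 and 5, RC → HFD replicates 8, 9, 10 and 11, HFD → RC replicates 13 and 14 and HFD NoDS replicates 20 and 23 (edgeR adjusted p from 0.152 to 0.251). *Osmr* had 1.02 between HFD NoDS and RC NoDS (edgeR adjusted p = 0.64). *C4b* was also called for the earlier diet (0.77, edgeR adjusted p = 0.00132) and in HFD NoDS against RC → HFD (0.98, edgeR adjusted p = 0.0103), the latter not in the 13 libraries (0.161). *Serpina3n* was called for the current diet (0.50, edgeR adjusted p = 0.0572) and in HFD → RC against HFD NoDS (-0.68, edgeR adjusted p = 0.108). The former was lost with robust dispersion and without 1 of RC NoDS replicate 2, RC → HFD replicate 11, HFD → RC replicate 13 and HFD NoDS replicate 23 (edgeR adjusted p from 0.161 to 0.191). The latter was lost with the filter at 5 reads, robust dispersion and only the 2 groups compared, and without 1 of HFD → RC replicates 13, 15 and 17 and HFD NoDS replicates 19, 21 and 23 (edgeR adjusted p from 0.181 to 0.37). In the 13 libraries its log2 fold change was -1.21. *Gfap*, *Serpina3n*, *C4b* and *Mobp* were called over all 4 groups, *Gfap* in 13 and *Mobp* in 17 of 32 alternatives and the others in all. For the earlier diet *Mobp* (0.78) and *Mbp* (0.75) were called, and kept the call in 17 and 13 of 32 alternatives. The 10 microglia genes were also all higher in HFD NoDS than in RC NoDS, as were the oligodendrocyte genes above. Their median was 0.23 (0.13 with the covariate), beside 0.01 over all genes, and none was called. *Csf1r*, the most abundant, had a log2 fold change of 0.26 (edgeR adjusted p = 0.64), and *C1qa*, *C1qb* and *C1qc* had 0.30, 0.27 and 0.25 (edgeR adjusted p = 0.657 for each). The summed CPM of the microglia list was 473, 492, 507, 487 and 549 in RC NoDS, and from 448 over 503 to 518 in RC → HFD. It was 502, 665, 526, 513 and 552 in HFD → RC and 533, 599, 563, 643 and 530 in HFD NoDS. The parts of microglia and of oligodendrocytes in the levels of the reactive genes were not tested. Whether the reactive genes differed from the identity genes in their response was not tested.

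The genes most like the members were named by their r, over 21 libraries with group means removed, with the mean standardized residual of the 10. Among the 10 highest were *Scd1* (0.760), *Agt* (0.756), *Nov* (0.751), *Wnk4* (0.750), *BC026585* (0.747), *Sparcl1* (0.736), *Lrrc27* (0.729), *Fbln5* (0.724) and *Gatm* (0.721). Of these *Agt* and *Sparcl1* were on the list of other astrocyte genes. *Scd1*, a fatty acid desaturase, and *Gatm*, an enzyme of creatine synthesis, were on none of the lists.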

How the data were processed

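RNA-seq of ventral hypothalamus punches gave 21 libraries, each a pool of 2 mice. The deposited counts per gene were used as given; the authors aligned reads to mm9 with STAR 2.5.1b, used Picard 2.7.1 and re-sampled libraries at random with PORT to equal depth, and whether counting used strand is not given. Genes averaging at least 50 reads (12768) were tested with the edgeR 4.0.16 quasi-likelihood test (R 4.3.3, TMM scaling, 1 mean per group), with Benjamini-Hochberg adjustment over all of them and calls at an adjusted p under 0.15. Reads counted on genes after that ran from 16380781 to 16390598 per library. Exon lengths and positions came from the GENCODE vM1 annotation of NCBIM37. Correlations used log2 CPM with a prior count of 2 and group means removed, with 100000 permutations. Code was tested on simulated data.

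Every member is named. Log2 fold changes are given for all of them in HFD NoDS against RC NoDS and elsewhere at an unadjusted p under 0.05. Of the other lists, called genes, the most abundant gene and up to 4 genes with the smallest p in HFD NoDS against RC NoDS are named, with some left out. *Gjb1* in HFD → RC, and *Dip2a*, were named after their values were seen. Members and lists were chosen with earlier results of these data known.

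Alternatives were DESeq2 1.42.0, limma-voom and limma-trend (limma 3.58.1), a filter at 5 reads, no filter, library size only, RLE factors, robust dispersion, the share of genes at 0 as a covariate, only the 2 groups compared, reads summed by symbol, a stricter threshold, and each library left out. Limma-trend was fitted to log2(count + 1) without TMM scaling, so it changed the test and the scaling together. Fitting 13 libraries was added after seeing the data. Tables were made with pandas 2.3.3, numpy 2.4.6 and scipy 1.17.1, and figures with matplotlib 3.10.9, under Python 3.11.15.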

Additional observations from a re-analysis of the deposited data

Results flagged for a closer look

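In 3 of 40 groups (10 genes in 4 diet groups) 1 library lay far from the others of its group, where chance flags about 1 in 20. *Slc1a3* in HFD → RC replicate 14 was at 734 CPM, with the other 4 libraries from 828 to 853. *Gja1* in HFD NoDS replicate 20 was at 268 CPM, with the other 4 from 191 to 213. *Aldoc* in RC → HFD replicate 12 was at 1272 CPM, with the other 5 from 1159 to 1199. No difference between the effects of current and earlier diet was called for any of the 10 genes in the fit to 21 libraries.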

How the results depend on the processing

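Of 1377 values of 43 results under the alternatives, 1289 stayed as they were and 20 log2 fold changes of single genes reversed; the cause was not tested. To stay meant the same direction and side of the threshold for a gene, a count within 1.5 times, and for a median a shift under 0.09, the SD between libraries. By that rule 5 medians that turned sign count as kept, all with 1 library left out: HFD NoDS against RC NoDS ran from -0.032 to 0.080, and HFD NoDS against RC → HFD from -0.093 to 0.016. In the main fit the median log2 fold changes lay between -0.03 and 0.12. A limit of 0.09 was wide for such values, so that a median stayed says little. In HFD → RC against RC NoDS, where edgeR called 1 of the 10 genes and 36 of all, 0 of the 10 were called at an adjusted p under 0.05, with limma-voom, with limma-trend, with library size only and with the share of genes at 0 as a covariate. Over all genes DESeq2 called 146, limma-voom 7, limma-trend 7, library size only 10 and the covariate fit 1. Leaving out 1 library gave 0 to 2 of the 10 and 1 to 203 of all. The 13 libraries with at most 15% of genes at 0, chosen after seeing the data, gave 4 of the 10 and 508 of all (3.98%), with 2 libraries in HFD → RC. They also gave 2 of the 10 in HFD → RC against HFD NoDS (3.48% of all), 4 for switched against unswitched groups (4.92% of all), 2 over all 4 groups (1.99% of all), and a median of -0.12 in HFD NoDS against RC → HFD. For the earlier diet DESeq2 called 1, no filter 1, and leaving out 1 library 0 to 1. Over all 4 groups DESeq2 called 1 and leaving out 1 library gave 0 to 1, as it did in HFD → RC against RC → HFD. In HFD NoDS against RC NoDS the log2 fold change of *Gja1* was -0.00467 with limma-voom, -0.022 with limma-trend, -0.00253 with the filter at 5 reads, -0.00661 with no filter, -0.016 with library size only, -0.000344 with the covariate and -0.075 in 13 libraries. *Aldh1l1* was at -0.021 with the covariate and -0.12 in 13 libraries. Leaving out 1 library gave -0.091 to 0.041 for *Gja1*, -0.061 to 0.095 for *Aldh1l1*, -0.0046 to 0.16 for *Glul*, -0.15 to 0.019 for *Gjb6* and -0.040 to 0.094 for *Aqp4*. The r between *S100b* and the oligodendrocyte sum stayed between 0.865 and 0.961. No paired analysis was possible because each library was a separate pool of 2 mice from its own diet group.

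Groups of 5 or 6 pools leave 95% intervals of the 10 log2 fold changes between pairs of groups that reach 0.11 to 0.27 to either side, so smaller differences were not resolved. The share of genes at 0 differed between libraries and between groups, and no batch is given.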
